A study of Mus musculus with 12 samples.

Results

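The 10 genes described here encode the secreted mucus layer of the mouse colon, the goblet cells that make it and the factors that specify those cells. They are Muc2, Fcgbp, Zg16, Tff3, Retnlb, Spink4, Agr2, Muc13, Atoh1 and Spdef, taken by symbol from a table of 55335 genes, in which each had 1 row. RNA-seq of colon tissue had been made from WT mice in which a chemical had caused colitis, with 3 libraries in each of 4 groups: TNBS with thymopentin, TNBS with normal saline, DSS with thymopentin and DSS with normal saline. TNBS (trinitrobenzene sulfonic acid) is a hapten given into the colon to provoke an immune colitis, DSS (dextran sulfate sodium) is a polymer that injures the colon epithelium, and thymopentin is a synthetic pentapeptide derived from the thymic protein thymopoietin. All groups had colitis, and colon without colitis was not analysed here, so each value is relative to another inflamed colon. The sources used here give no dose, time, strain, age or sex, and no label says that the 3 libraries of a group were separate animals, so p-values measure the spread between these libraries, which may be technical.

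Goblet cells cover the colon surface with a gel whose scaffold is the mucin MUC2, which is folded in the endoplasmic reticulum, densely O-glycosylated in the Golgi and unfolded on release. The transcription factor ATOH1 commits crypt progenitors to the secretory lineages, goblet cells among them, and SPDEF acts after it in goblet cell maturation. In colitis the goblet cells can be lost or emptied of mucin. In bulk tissue RNA, fewer goblet cells and less RNA per goblet cell cannot be told apart, and stored mucin is not measured.

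Values are FPKM, fragments scaled to transcript length and library size, and were tested with limma on log2(FPKM + 1) over 13794 genes with a mean of at least 1 FPKM; all 10 genes passed that filter. A gene is said to have changed, risen or fallen where its p, adjusted over all tested genes by the Benjamini-Hochberg method, was under 0.05. Fold changes are on the FPKM + 1 scale, errors on them are standard errors and errors on FPKM are SD over 3 libraries. Summed FPKM lay between 384431 and 532510 per library. The 12 pan-epithelial markers summed to between 5228 and 8045 FPKM per library, so every library held colon epithelium. The gastric mucin Muc5ac and the gastric trefoil peptides Tff1 and Tff2 were at or near 0 in every library. TNBS saline 3 and TNBS thymopentin 3 lay below the other TNBS libraries in Zg16, Tff3, Fcgbp and Muc13, and above them in Muc2 and Spdef. They did not stand apart in Atoh1, Spink4 and Retnlb, and barely did so in Agr2. Results of the 10 genes whose call or direction changed without both libraries are also given without them.

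Because Muc2, Atoh1 and Spdef carried the called differences among these genes, the 250 bases before their transcription starts are shown, from RefSeq on GRCm38.p6 (6 of the 10 genes had an entry; Retnlb, Tff3, Zg16 and Spink4 had none). The windows are chr7:141690090-141690339 on the plus strand for Muc2, chr6:64728875-64729124 on the plus strand for Atoh1 and chr17:27728952-27729201 on the minus strand for Spdef. Each reads 5′ to 3′ on the gene's strand, and capitals mark the E-box letters CANNTG, the kind of sequence that basic helix-loop-helix factors such as ATOH1 bind.
Muc2: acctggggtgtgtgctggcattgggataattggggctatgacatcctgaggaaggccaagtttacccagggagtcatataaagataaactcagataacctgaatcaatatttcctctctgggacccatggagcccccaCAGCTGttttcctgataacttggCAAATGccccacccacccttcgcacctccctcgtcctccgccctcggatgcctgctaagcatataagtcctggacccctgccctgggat
Atoh1: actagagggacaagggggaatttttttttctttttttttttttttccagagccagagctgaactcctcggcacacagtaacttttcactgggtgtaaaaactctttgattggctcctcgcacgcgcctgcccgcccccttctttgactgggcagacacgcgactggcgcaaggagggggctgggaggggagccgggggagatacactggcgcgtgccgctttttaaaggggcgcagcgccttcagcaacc
Spdef: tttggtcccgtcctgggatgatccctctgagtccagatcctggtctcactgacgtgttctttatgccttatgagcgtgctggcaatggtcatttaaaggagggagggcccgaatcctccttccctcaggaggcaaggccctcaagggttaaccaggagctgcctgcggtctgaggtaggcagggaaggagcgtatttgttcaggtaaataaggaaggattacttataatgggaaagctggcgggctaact
The Muc2 window held 2 E-boxes, CAGCTG at 112 bases and CAAATG at 89 bases upstream of the start. The Atoh1 and Spdef windows held none. An E-box occurred in 66.2% of 32851 promoter windows of the same length, searched on both strands. The letters TGTTTNC, a form of the forkhead sequence that factors of the FOXA family bind, occurred in the Muc2 window at 108 bases upstream, overlapping the E-box CAGCTG, and in 17.8% of all windows. Neither the Atoh1 nor the Spdef window held these letters, and other forms of the forkhead sequence were not searched. The letters CACCC, a core bound by KLF factors, occurred at 3 places in the Muc2 window and at 1 place in the Atoh1 window, and in 52.0% of all windows. These matches describe letters and not bound sites.

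The secreted products were among the most abundant transcripts of the tissue. By mean FPKM over the 12 libraries Zg16, a lectin-like mucus protein that binds Gram-positive bacteria, ranked 18 of all genes with 3099 FPKM. Tff3, the trefoil peptide of intestinal goblet cells, ranked 34 with 1206 FPKM. Spink4, a serine protease inhibitor of the Kazal type, Agr2, a disulfide isomerase of the endoplasmic reticulum needed to make Muc2, Muc13, a transmembrane mucin of the apical surface, and Muc2 itself ranked 45, 46, 47 and 50. Fcgbp, a large mucus protein with von Willebrand factor domains like those of Muc2, ranked 186. Retnlb, a resistin-like protein with antibacterial activity secreted by goblet cells, ranked 373 with 114 FPKM. The regulators were far less abundant, with Atoh1 at rank 1775 and 25.1 FPKM and Spdef at rank 4731 and 8.86 FPKM. Together the 10 genes made up 1.40% ± 0.167 of summed FPKM in DSS thymopentin libraries, against 1.87% ± 0.125 in DSS saline libraries, and 1.95% ± 0.645 in TNBS thymopentin libraries, against 2.17% ± 0.534 in TNBS saline libraries (SD, n = 3 each). The DSS thymopentin shares lay between 1.21% and 1.52%, below the DSS saline shares of 1.73% to 1.97%; the TNBS groups overlapped.

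**Figure D1:**
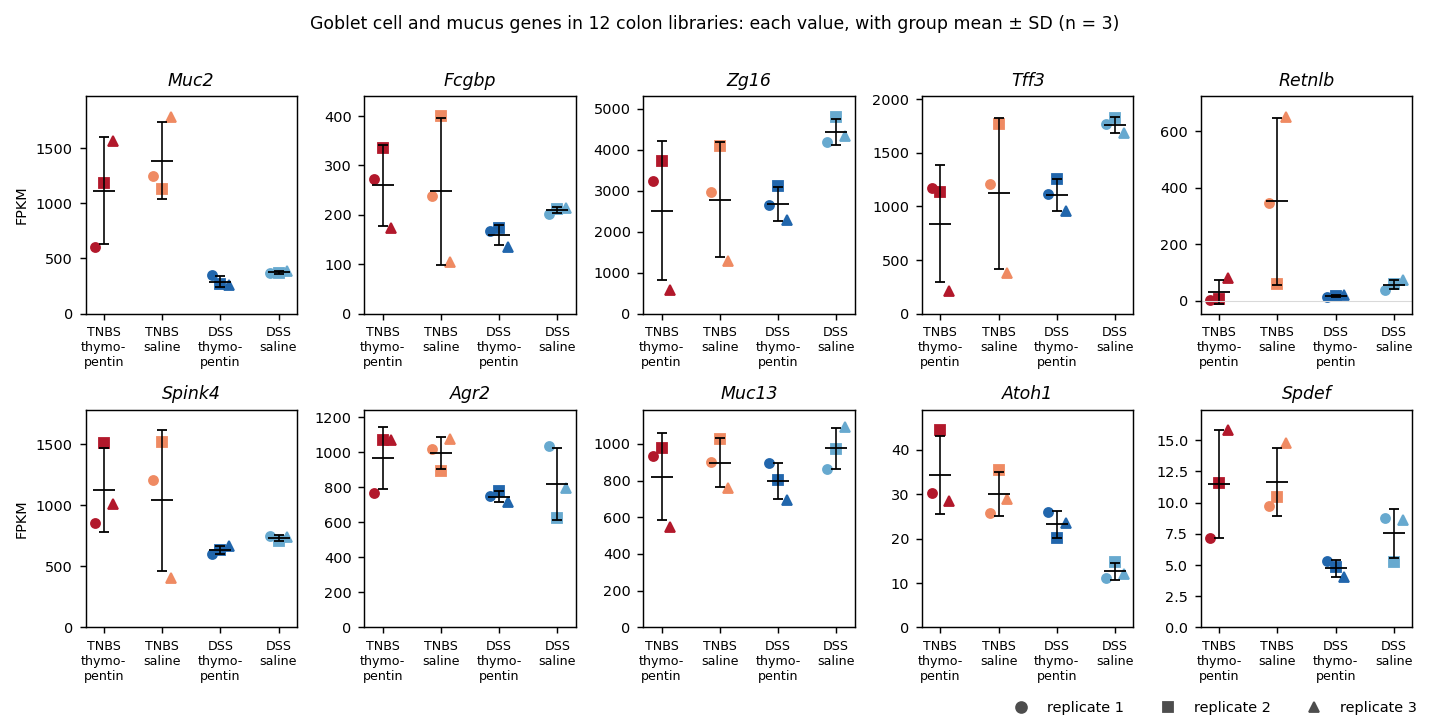
FPKM of each of the 10 genes in each library (points, shaped by replicate number), with the group mean and SD (black bars, n = 3), for TNBS thymopentin, TNBS saline, DSS thymopentin and DSS saline from left to right; every panel has its own linear axis. Muc2 sits between 257 and 389 FPKM in the 6 DSS libraries and between 600 and 1779 FPKM in the 6 TNBS libraries, and Retnlb spreads from 4.01 to 649 FPKM.

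The genes varied unequally between groups. The highest group mean was 21.6 times the lowest for Retnlb, 4.77 times for Muc2, 2.72 times for Atoh1, 2.47 times for Spdef and 2.09 times for Tff3. For Zg16 and Spink4 it was 1.77 times, for Fcgbp 1.63 times and for Agr2 1.33 times, and Muc13 varied least. In level, Muc2 ran from TNBS saline through TNBS thymopentin and DSS saline down to DSS thymopentin; the TNBS groups overlapped, and the libraries of the other neighbours in that order did not. Atoh1 ran from TNBS thymopentin through TNBS saline and DSS thymopentin down to DSS saline, and only DSS thymopentin and DSS saline did not overlap among neighbours. Spdef, Agr2, Muc13, Tff3 and Retnlb overlapped between all neighbours in their orders.

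In DSS colitis thymopentin was accompanied by more Atoh1 RNA, while the products of the goblet cell lay lower without passing the test. Of the 10 genes 1 was called higher and 0 lower, where 17% of all tested genes were called, 12.7% higher and 4.3% lower. Atoh1 had 26.1, 20.05 and 23.6 FPKM in DSS thymopentin libraries, against 11.1, 14.7 and 12.1 FPKM in DSS saline libraries. Every DSS thymopentin library lay above every DSS saline library. Atoh1 rose 1.78-fold (log2 0.83 ± 0.18, 95% interval 0.43 to 1.24, adjusted p = 0.0153). The call was lost without DSS saline 1 (adjusted p = 0.0507), without DSS saline 3 (0.0555) and on a scale relative to pan-epithelial markers, where the log2 change of Atoh1 was 0.71 (0.0608) and 5.6% of all genes were called.

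The other 9 genes had log2 changes below 0, and none was called in the fit of all 12 libraries. Muc2 had 350, 264 and 257 FPKM in DSS thymopentin libraries, against 366, 368 and 389 FPKM in DSS saline libraries (log2 -0.38 ± 0.30, adjusted p = 0.411). Zg16 had 2647, 3103 and 2279.7 FPKM in DSS thymopentin libraries, against 4173, 4786 and 4337 FPKM in DSS saline libraries (log2 -0.74 ± 0.63, adjusted p = 0.441). Tff3 had 1112, 1254 and 954 FPKM in DSS thymopentin libraries, against 1767, 1825 and 1681 FPKM in DSS saline libraries (log2 -0.67 ± 0.65, adjusted p = 0.501). For each of these 3 scaffold and secreted proteins all DSS thymopentin libraries lay below all DSS saline libraries. Fcgbp averaged 159 ± 20.6 FPKM in DSS thymopentin and 209 ± 6.13 FPKM in DSS saline (log2 -0.40 ± 0.40, adjusted p = 0.514). Spink4 averaged 636 ± 33.0 FPKM in DSS thymopentin and 733 ± 25.0 FPKM in DSS saline (log2 -0.20 ± 0.40, adjusted p = 0.758). Retnlb had 12.3, 17.2 and 19.3 FPKM in DSS thymopentin libraries, against 38.6, 59.99 and 72.7 FPKM in DSS saline libraries (log2 -1.72 ± 1.02, adjusted p = 0.261). These 3 secreted proteins did not overlap either, which makes 6 of 10 genes non-overlapping and lower and 1 higher, against 11.5% and 28.3% of all tested genes.

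These tests used 1 estimate of spread per gene over all 12 libraries. For some genes, Zg16 and Tff3 among them, the TNBS libraries spread far more than the DSS libraries. That did not hold for every gene: the SD of Agr2 was 206 FPKM in DSS saline, against 175 FPKM in TNBS thymopentin and 92.1 FPKM in TNBS saline. The SD of Zg16 was 1695 FPKM in TNBS thymopentin and 1406 FPKM in TNBS saline, against 412 FPKM in DSS thymopentin and 318 FPKM in DSS saline. Fitted on the 6 DSS libraries alone, 4 of the 10 genes were called, 1 higher and 3 lower, where 12% of all genes were called and 4.04% were lower. Tff3 then had a log2 change of -0.67 ± 0.13 (adjusted p = 0.0241), Zg16 of -0.74 ± 0.14 (0.0263) and Retnlb of -1.72 ± 0.26 (0.0141), and Atoh1 kept its call (0.0192). Muc2 with an adjusted p of 0.113, Spdef with 0.110 and Fcgbp with 0.0697 were not called there. With the 12 libraries less TNBS saline 3 and TNBS thymopentin 3, Tff3 (adjusted p = 0.0196), Zg16 (0.0161) and Atoh1 (0.0182) were called, where 19.4% of all genes were, and Retnlb was not (0.0604). Both libraries were left out once their low Zg16 and Tff3 were known. They are in neither DSS group, so leaving them out changed the estimate of spread and not the log2 changes. The calls of that fit are therefore only a description. The authors' deposited table for DSS lists Retnlb alone of the 10 genes, at a log2 change of -1.92 with an FDR of 2.21e-15; that table holds only genes that changed by at least 1 log2 unit.

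Muc13, Agr2 and Spdef overlapped between the DSS groups. Muc13 averaged 799 ± 98.9 FPKM in DSS thymopentin and 974 ± 114 FPKM in DSS saline (adjusted p = 0.374). Agr2 averaged 748 ± 30.3 FPKM in DSS thymopentin and 819 ± 206 FPKM in DSS saline (adjusted p = 0.738). Spdef, the maturation factor, had 5.31, 4.85 and 4.02 FPKM in DSS thymopentin libraries, against 8.73, 5.25 and 8.61 FPKM in DSS saline libraries. Its log2 change was -0.55 ± 0.26 (95% interval -1.14 to 0.03, adjusted p = 0.170), on the other side of 0 from that of Atoh1. Over the 10 genes the median log2 change was -0.39, against 0.12 over all tested genes, and 9 of the 10 were also below 0 with quantile normalization, median-ratio rescaling and relative to pan-epithelial markers.

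**Figure D2:**
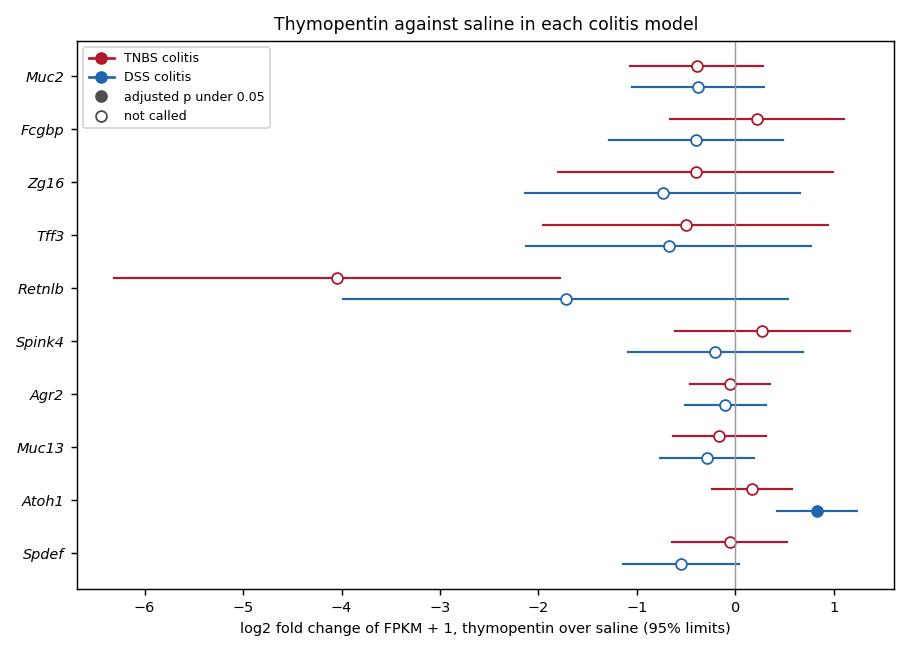
Log2 fold change of FPKM + 1, thymopentin over saline, of each gene in TNBS colitis and in DSS colitis (points, with 95% intervals; filled where adjusted p was under 0.05). Atoh1 in DSS (0.83) is the only filled point; the other 9 DSS values lie below 0, and Retnlb has the lowest value in both models (-4.05 in TNBS, -1.72 in DSS).

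Several of the factors that specify the secretory lineages were higher with thymopentin in DSS. Of 16 tested secretory lineage regulators other than Atoh1 and Spdef, 8 rose and 0 fell, with a median log2 change of 0.55, against 17% called and a median of 0.12 over all tested genes. Foxa2, a forkhead factor of goblet and enteroendocrine differentiation, had 14.9, 14.8 and 14.9 FPKM in DSS thymopentin libraries, against 6.75, 7.19 and 6.50 FPKM in DSS saline libraries (log2 1.02 ± 0.16, adjusted p = 0.0041). Its relative Foxa1 rose by log2 0.55 ± 0.09 (0.0057; 0.0607 relative to pan-epithelial markers) and Sox9, a crypt base factor required for Paneth cells, by 0.75 ± 0.13 (0.0058). Each had no overlap between the groups. Klf4, a factor required for goblet cell maturation in the mouse colon, also rose (0.69 ± 0.13, adjusted p = 0.0074), with 255, 239 and 193 FPKM in DSS thymopentin libraries, against 122, 155 and 147 FPKM in DSS saline libraries. The count of 8 became 4 without DSS saline 3 or without DSS thymopentin 3, 5 without DSS thymopentin 1 or 2, 3 relative to pan-epithelial markers and 5 with no filter on low values, quantile normalization or median-ratio rescaling; Foxa2, Sox9 and Klf4 were called in each of these.

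**Figure D3:**
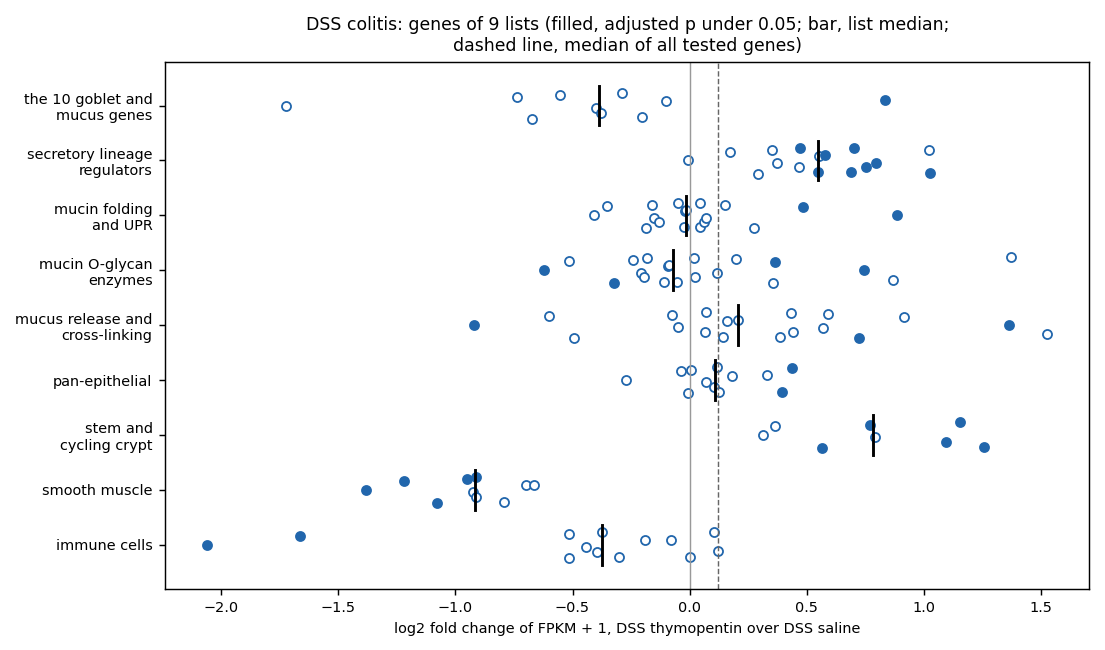
Log2 fold change of FPKM + 1, DSS thymopentin over DSS saline, of the tested genes of 9 lists (points; filled where adjusted p was under 0.05), with the median of each list (bar) and of all tested genes (dashed line, 0.12). The 16 secretory lineage regulators have a median of 0.55 with 8 called higher, the 10 goblet cell and mucus genes a median of -0.39 with 1 called higher, and the smooth muscle markers a median of -0.92.

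Of the genes of mucin synthesis few were called, as of the tested genes at large, of which 12.7% rose and 4.3% fell. Of 18 genes of mucin folding and the unfolded protein response, 2 rose and 0 fell, with a median of -0.02. Ern2, the IRE1 beta stress sensor of mucus-producing epithelium, had 25.7, 26.8 and 28.8 FPKM in DSS thymopentin libraries, against 14.0, 13.9 and 14.8 FPKM in DSS saline libraries (log2 0.88 ± 0.09, adjusted p = 0.0008). Xbp1, the factor whose RNA such sensors splice, rose by log2 0.48 ± 0.12 (0.0275). Of 20 mucin O-glycan enzymes 2 rose, the sialyltransferase St3gal6 among them (0.74 ± 0.20, 0.0342), and 2 fell, namely Galnt2, which starts O-glycans (-0.32 ± 0.09, 0.0330), and Fut2, which adds terminal fucose (-0.62 ± 0.17, 0.0340). Of 19 genes of mucus release, unfolding and cross-linking 2 rose and 1 fell. The chloride and bicarbonate channel Cftr, whose bicarbonate lets mucus unfold, rose by log2 1.36 ± 0.20 (0.0027) and the chloride importer Slc12a2 by 0.72 ± 0.21 (0.0398), while the cross-linking transglutaminase Tgm2 fell by 0.92 on the log2 scale (SE 0.14, 0.0028). Of 6 other secreted mucus proteins Dmbt1, a scavenger receptor protein of mucus, fell (adjusted p = 0.0367), with 205, 234 and 177 FPKM in DSS thymopentin libraries, against 288, 494 and 478 FPKM in DSS saline libraries. Of 4 other transmembrane mucins Muc3 rose (0.75 ± 0.19, 0.0232), with reads that a near-identical copy, Muc3a, can share. Ern2, Cftr and Tgm2 kept their calls in every setting and without any single library. The calls of Xbp1, St3gal6, Galnt2, Fut2, Slc12a2, Dmbt1 and Muc3 were each lost in 1 to 6 other settings, up to an adjusted p of 0.178, and on leaving out any of 4 to 7 single libraries, up to 0.118; for at least 1 of them this held for each DSS library, TNBS saline 1 and TNBS thymopentin 2.

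Among signals to goblet cells 2 of 9 tested genes rose and 3 fell in DSS with thymopentin, against 12.7% and 4.3% of all tested genes. Il4ra, the receptor chain for IL-4 and IL-13, fell by 0.72 on the log2 scale (SE 0.13, adjusted p = 0.0063), and the growth factor Areg fell by 1.39 (SE 0.26, 0.0086). Stat6, the factor that the receptor activates, rose by 0.35 (SE 0.08, 0.0157), but did not pass the test in 4 other settings (adjusted p up to 0.288) or with either DSS thymopentin 2 or DSS saline 3 left out (0.0632 at most). The ligands Il4, Il5 and Il13 did not exceed 0.401 FPKM in any library. Il22, which drives mucus and antimicrobial genes in epithelium, had 0, 0.236 and 0 FPKM in DSS thymopentin libraries. In DSS saline libraries it had 13.1, 5.59 and 0.969 FPKM, without overlap. It was called lower (log2 -2.40 ± 0.54, adjusted p = 0.0164, but 0.0588 in the fit of the DSS libraries alone). Counted among the 3 that fell, this call is only a description: the DSS saline libraries alone carry Il22 past the filter of 1 FPKM. Its receptor chain Il22ra1 rose, with 5.82, 4.06 and 2.56 FPKM in DSS thymopentin libraries, against 1.09, 1.97 and 2.19 FPKM in DSS saline libraries (log2 0.88 ± 0.23, adjusted p = 0.0302); that call was lost in 6 of the other settings, up to an adjusted p of 0.0784, and without DSS saline 1, DSS saline 3, DSS thymopentin 1 or DSS thymopentin 2.

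Markers of some other cell types changed in this comparison, in which 12.7% of all tested genes rose and 4.3% fell. Smooth muscle markers summed to 1559 to 2337 FPKM in DSS thymopentin libraries, against 3491 to 4064 FPKM in DSS saline libraries; 5 of 10 fell, 0 rose and none was at 0. That count became 0 without DSS saline 1, DSS saline 3, DSS thymopentin 2 or DSS thymopentin 3, 1 without DSS saline 2, TNBS saline 1, TNBS thymopentin 1 or TNBS thymopentin 2, and 2 without DSS thymopentin 1, while the median log2 change of -0.92 over the list stayed below 0 in each. It was 0 with no filter on low values and 10 in the fit of the DSS libraries alone, and the sums of the groups did not overlap. Of 8 tested stem and cycling crypt markers 5 rose, with sums of 36.8 to 38.5 FPKM in DSS thymopentin libraries, against 12.9 to 18.6 FPKM in DSS saline libraries; the count was 3 without DSS saline 1, DSS saline 3 or DSS thymopentin 1. Lgr5 and Olfm4 stayed under 1 FPKM in every library. Colon segment markers, which differ in level along the colon, summed to 427 to 454 FPKM in DSS thymopentin libraries, against 273 to 306 FPKM in DSS saline libraries, without overlap; 2 of 9 tested rose (1 without DSS saline 1, DSS saline 3 or DSS thymopentin 3), with a median log2 change of 0.34. Pan-epithelial markers overlapped, at 7036 to 8045 FPKM in DSS thymopentin libraries, against 6575 to 7944 FPKM in DSS saline libraries, with 2 of 12 (Cdh1 and Epcam) risen, a share near that of all genes. Immune markers overlapped at 187 to 451 FPKM in DSS thymopentin libraries, against 153 to 569 FPKM in DSS saline libraries, with S100a8 and S100a9 fallen. Of the other epithelial lists, 2 of 14 absorptive markers rose (Cyp2c55 and Car2), also near that share, 2 of 9 enteroendocrine (Gcg and Scg2) and 1 of 5 Paneth markers (Pla2g2a) fell, and limma called 0 of 5 tuft markers (1 at an unadjusted p under 0.05). The calls of Cdh1, Epcam, Cyp2c55, Car2 and Pla2g2a were lost without 3 to 8 single libraries each, up to an adjusted p of 0.131, with DSS saline 1, DSS thymopentin 1 and DSS thymopentin 2 common to them. That of Gcg was lost without 9 single libraries (up to 0.143) and that of Scg2 without DSS saline 2, DSS saline 3 or DSS thymopentin 2 (up to 0.0834). The part of these shifts in the changes of Atoh1 and the secreted genes was not tested beyond the scale relative to pan-epithelial markers, on which the median log2 change of the 10 genes stayed below 0 (-0.51).

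In TNBS colitis the widest difference with thymopentin was that of Retnlb, which did not pass the test, and the remaining genes showed no common direction. None of the 10 genes was called by limma, where 0.667% of all tested genes were, 0.283% higher and 0.384% lower; 1 of 10 had an unadjusted p under 0.05, against 12.7% of all genes. Retnlb had 4.01, 6.43 and 78.8 FPKM in TNBS thymopentin libraries, against 346, 58.4 and 649 FPKM in TNBS saline libraries. TNBS thymopentin 3 lay above TNBS saline 2, so the groups overlapped, and TNBS saline 2 was the lowest of its group by a wide margin. Retnlb was 16.5-fold lower on the FPKM + 1 scale (log2 -4.05 ± 1.02, 95% interval -6.31 to -1.78), at an unadjusted p of 0.0024 and an adjusted p of 0.117. The labels do not say what the replicate numbers mean. TNBS thymopentin 1 deviated more with TNBS saline 2 (correlation 0.287) than with TNBS saline 1 (0.124). With the numbers taken as an assumed pairing, Retnlb was 86.3-, 9.08- and 8.23-fold lower in FPKM within 1, 2 and 3. With the replicate number as a block the adjusted p was 0.0488, where 0.573% of all genes were called. The adjusted p was also under 0.05 when TNBS thymopentin 3 (0.0402) or TNBS saline 2 (0.0491) was left out, but not without any other single library. It was also under 0.05 when both replicates 3 were left out (0.0393), where 0.326% of all genes were called. TNBS thymopentin 3 and TNBS saline 2 are the libraries through which the groups overlapped. Leaving out either removes the overlap by construction, so these fits are only a description. The authors' deposited table for TNBS lists Retnlb alone of the 10 genes, at a log2 change of -4.27 with a p of 0.0084 and an FDR of 0.164.

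The TNBS libraries differed from each other in the mucus genes more than the groups did. Zg16 had 3235, 3711 and 567 FPKM in TNBS thymopentin libraries, against 2965, 4088 and 1294 FPKM in TNBS saline libraries (log2 -0.40 ± 0.63, adjusted p = 0.858). Tff3 had 1170, 1135 and 215 FPKM in TNBS thymopentin libraries, against 1210, 1772 and 380 FPKM in TNBS saline libraries (log2 -0.50 ± 0.65, adjusted p = 0.823). Fcgbp had 272, 336 and 173 FPKM in TNBS thymopentin libraries, against 238, 399.9 and 105 FPKM in TNBS saline libraries (log2 0.22 ± 0.40, adjusted p = 0.883; log2 -0.03 without both replicates 3). In each of these genes replicate 3 was the lowest of its group, in both groups. Muc2 went the other way, with 600, 1180 and 1565 FPKM in TNBS thymopentin libraries, against 1250, 1130 and 1779 FPKM in TNBS saline libraries (log2 -0.39 ± 0.30, 95% interval -1.06 to 0.28, adjusted p = 0.657). Spdef had 7.17, 11.6 and 15.8 FPKM in TNBS thymopentin libraries, against 9.77, 10.5 and 14.8 FPKM in TNBS saline libraries (adjusted p = 0.963). Replicate 3 was the highest of both groups in Muc2 and in Spdef, so within the TNBS groups the scaffold mucin and its maturation factor were most abundant where Zg16 and Tff3 were least.

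**Figure D4:**
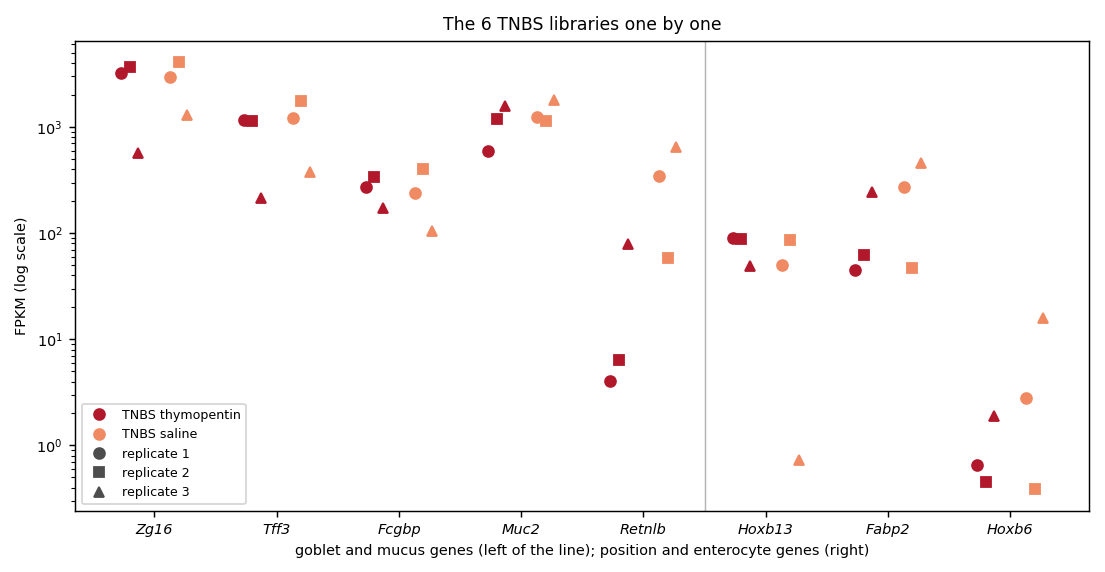
FPKM on a log axis of goblet cell and mucus genes (left) and of position and enterocyte genes (right) in the 6 TNBS libraries, each point a library, shaped by replicate number. TNBS thymopentin 3 and TNBS saline 3 have the least Zg16 (567 and 1294), Tff3 (215 and 380) and Fcgbp (173 and 105) of their groups and the most Muc2 (1565 and 1779).

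Genes that mark position along the gut also varied among the TNBS libraries. Hoxb13, a homeobox factor of the most distal colon segment, had 89.8, 87.4 and 49.4 FPKM in TNBS thymopentin libraries, against 50.0, 86.9 and 0.722 FPKM in TNBS saline libraries. TNBS saline 1 was as low in Hoxb13 as TNBS thymopentin 3. Fabp2, the intestinal fatty acid binding protein, had 45.2, 61.6 and 242 FPKM in TNBS thymopentin libraries, against 275, 46.7 and 454 FPKM in TNBS saline libraries. Replicate 3 was the lowest of its group in Hoxb13 and the highest in Fabp2, in both groups, although Fabp2 was higher in TNBS saline 1 than in TNBS thymopentin 3; both genes were picked once their values were known, and whether the sampled stretch of colon differed was not tested. Retnlb was also highest in replicate 3 of both groups, and in TNBS saline it was lowest where Fabp2 was lowest, in replicate 2.

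The remaining TNBS values of the 10 genes did not separate the groups. Atoh1 had 30.3, 44.5 and 28.4 FPKM in TNBS thymopentin libraries, against 25.8, 35.5 and 29.0 FPKM in TNBS saline libraries (log2 0.17 ± 0.18, 95% interval -0.24 to 0.58, adjusted p = 0.775). Spink4 averaged 1127 ± 344 FPKM in TNBS thymopentin and 1042 ± 576 FPKM in TNBS saline (0.848; log2 -0.25 without both replicates 3), Agr2 averaged 968 ± 175 FPKM in TNBS thymopentin and 996 ± 92.1 FPKM in TNBS saline (0.946), and Muc13 averaged 820 ± 236 FPKM in TNBS thymopentin and 896 ± 133 FPKM in TNBS saline (0.826). The median log2 change was -0.11, against 0.03 over all tested genes, but 0.10 relative to pan-epithelial markers, against 0.24 over all tested genes on that scale, and 0 of 10 genes separated the groups without overlap, against 18.8% of all genes. In the wider mucus lists limma called 0 of 16 lineage regulators, 0 of 18 folding genes, 0 of 20 O-glycan enzymes, 0 of 6 other secreted proteins and 0 of 4 other transmembrane mucins. At an unadjusted p under 0.05 the counts were 0, 1, 8, 1 and 0 in that order. Over all tested genes 0.667% were called and 12.7% had an unadjusted p under 0.05. The 8 of 20 O-glycan enzymes lay above that share, with 9 of the list above 0 and 11 below. Among 19 release genes the chloride and bicarbonate exchanger Slc26a3, also an absorptive marker, rose (log2 1.25 ± 0.20, adjusted p = 0.0217), but not without TNBS saline 1, 2 or 3 (up to 0.0746) or in 3 other settings (up to 0.122), the fit without both replicates 3 among them. Among 9 signals Il4ra fell by 0.75 on the log2 scale (SE 0.13, 0.0317), with 5.81, 7.62 and 5.12 FPKM in TNBS thymopentin libraries, against 11.2, 11.4 and 10.2 FPKM in TNBS saline libraries; that call reached an adjusted p of up to 0.121 without DSS thymopentin 3, without DSS saline 3 or without any TNBS library other than TNBS thymopentin 2, and of up to 0.168 in 4 other settings, again the fit without both replicates 3 among them. Mmp7, which stands in the Paneth list, fell by 2.41 (SE 0.15, 0.0001), the only call among 5 Paneth markers. The size of its log2 change depended on the setting, from -4.47 to -2.20. No pan-epithelial, enteroendocrine, tuft, stem, smooth muscle, immune or colon segment marker was called, and between 0 and 3 of each list had an unadjusted p under 0.05. Of 14 absorptive markers Slc26a3 alone was called, and 6 had an unadjusted p under 0.05, against 12.7% of all tested genes.

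Tested as a difference, the response to thymopentin did not differ between the models for any of the 10 genes at an adjusted p under 0.05, where 5.15% of all tested genes did. At an unadjusted p under 0.05, 1 of 10 did, against 22.1% of all genes: Atoh1, with a difference of log2 0.66 ± 0.26, DSS minus TNBS (unadjusted p = 0.0279, adjusted p = 0.164). Retnlb had a difference of 2.32 ± 1.44 (95% interval -0.88 to 5.52, adjusted p = 0.387), and the other 8 had adjusted p between 0.486 and 0.990. The difference of Spink4 (log2 -0.48) changed sign without both replicates 3 and was not called there either. The interval for Muc2, -0.93 to 0.97, leaves room for differences of nearly 1 log2 unit either way. Around these genes, and against 5.15% of all tested genes, the test called 1 of 16 lineage regulators, 1 of 18 folding genes, 1 of 20 O-glycan enzymes, 2 of 19 release genes and 1 of 9 signals. The responses of Foxa1 (log2 0.68 ± 0.13, adjusted p = 0.0213), Ern2 (0.68 ± 0.13, 0.0203), Cftr (1.96 ± 0.28, 0.0079) and Stat6 (0.58 ± 0.11, 0.0207) were higher in DSS than in TNBS, and those of Galnt2 (-0.58 ± 0.12, 0.0287) and Tgm2 (-0.88 ± 0.19, 0.0305) were lower. Cftr kept its call in every setting and without any single library. The other 5 were each lost without some single libraries, up to an adjusted p of 0.0801 and for at least 1 of them without any of the 6 TNBS libraries except TNBS saline 3, and without DSS saline 1, DSS saline 3 or DSS thymopentin 2. In other settings their adjusted p reached 0.426, with the calls of Foxa1, Ern2 and Stat6 lost relative to pan-epithelial markers and those of Stat6 and Tgm2 without both replicates 3.

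Between the colitis models, Muc2 RNA was lower in DSS than in TNBS whichever agent was given, and 1 regulator was called lower in each comparison: Atoh1 with saline and Spdef with thymopentin. Of the 10 genes 2 were lower and 0 higher in DSS saline than in TNBS saline, where 46.6% of all tested genes were called, 31.5% lower and 15.2% higher; a share of 2 in 10 is below that background. Muc2 averaged 374 ± 12.9 FPKM in DSS saline and 1386 ± 346 FPKM in TNBS saline (SD, n = 3 each), with no overlap. It was 3.63-fold lower (log2 -1.86 ± 0.30, adjusted p = 0.0008). Atoh1 averaged 12.6 ± 1.88 FPKM in DSS saline and 30.1 ± 4.95 FPKM in TNBS saline, also without overlap, and was 2.28-fold lower (log2 -1.19 ± 0.18, adjusted p = 0.0006). Both calls held in each alternative processing and without any single library. Spdef averaged 7.53 ± 1.98 FPKM in DSS saline and 11.7 ± 2.71 FPKM in TNBS saline, without overlap, at an adjusted p of 0.0968. With these 3 genes 3 of 10 lay lower without overlap, against 37.7% of all tested genes.

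With thymopentin 2 of 10 genes were lower and 0 higher in DSS than in TNBS, where 27.5% of all tested genes were called, 16.5% lower and 11% higher. Muc2 averaged 291 ± 51.8 FPKM in DSS thymopentin and 1115 ± 486 FPKM in TNBS thymopentin and was 3.59-fold lower (log2 -1.84 ± 0.30, adjusted p = 0.0027). Spdef averaged 4.73 ± 0.657 FPKM in DSS thymopentin and 11.5 ± 4.31 FPKM in TNBS thymopentin and was 2.10-fold lower (log2 -1.07 ± 0.26, adjusted p = 0.0145); its call was lost without TNBS thymopentin 3 (0.0517) or DSS thymopentin 3 (0.0580). Atoh1 averaged 23.2 ± 3.02 FPKM in DSS thymopentin and 34.4 ± 8.79 FPKM in TNBS thymopentin (log2 -0.53 ± 0.18, adjusted p = 0.0560). Its libraries did not overlap, nor did those of Muc2, Spdef and Spink4, which makes 4 of 10 lower, against 27.6% of all tested genes.

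The abundant products apart from Muc2 passed the test in neither model comparison. Zg16 averaged 4432 ± 318 FPKM in DSS saline and 2782 ± 1406 FPKM in TNBS saline (log2 0.82 ± 0.63, adjusted p = 0.310), and all DSS saline libraries lay above all TNBS saline libraries, as in 18.8% of all tested genes. Tff3 averaged 1758 ± 72.6 FPKM in DSS saline and 1121 ± 700 FPKM in TNBS saline (log2 0.91 ± 0.65, adjusted p = 0.279). Zg16 and Tff3 thus lay on the other side of 0 from Muc2 with saline. With thymopentin their log2 differences were 0.49 and 0.74, but -0.38 and -0.07 without TNBS thymopentin 3, and that of Zg16 was -0.04 with quantile normalization. Retnlb averaged 57.1 ± 17.2 FPKM in DSS saline and 351 ± 295 FPKM in TNBS saline (log2 -2.08 ± 1.02, adjusted p = 0.120), and 16.3 ± 3.62 FPKM in DSS thymopentin and 29.8 ± 42.5 FPKM in TNBS thymopentin (log2 0.24 ± 1.02, adjusted p = 0.881). Muc13 had log2 differences of 0.12 ± 0.21 with saline and -0.0003 ± 0.21 with thymopentin, with 95% intervals of -0.35 to 0.60 and -0.47 to 0.47. Agr2 and Fcgbp had adjusted p of 0.197 and 0.940 with saline and 0.173 and 0.237 with thymopentin.

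**Figure D5:**
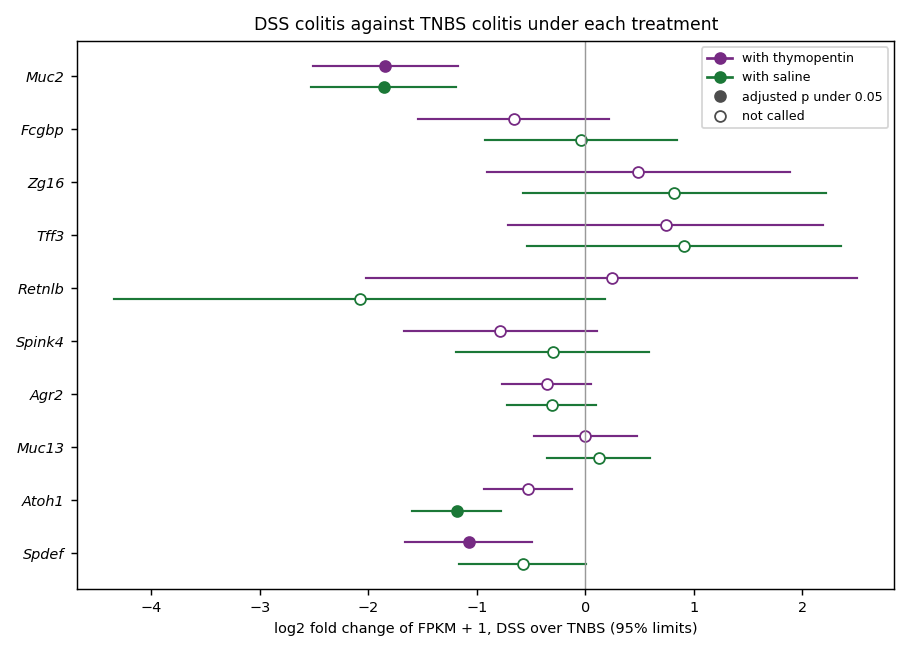
Log2 fold change of FPKM + 1, DSS over TNBS, of each gene with thymopentin and with saline (points, with 95% intervals; filled where adjusted p was under 0.05). Muc2 is filled with either agent (-1.84 and -1.86), Spdef with thymopentin (-1.07) and Atoh1 with saline (-1.19), and Zg16 and Tff3, not called, lie above 0 in both.

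Genes that build mucin were among the many genes that differed between the models: with saline, 31.5% of all tested genes were lower and 15.2% higher in DSS than in TNBS, a share that the folding genes came near. Of 20 O-glycan enzymes 12 were lower and 2 higher in DSS saline than in TNBS saline, with a median log2 difference of -0.72, against -0.14 over all tested genes. Galnt7 was lower by log2 -1.32 ± 0.11, C1galt1, which makes the core 1 structure of O-glycans, by -1.05 ± 0.10 and Galnt10 by -1.05 ± 0.12 (adjusted p = 3.53e-05 for Galnt7). Of 18 folding and stress genes 7 were lower and 2 higher; Ern2 was lower by -1.13 ± 0.09, Ern1 by -0.74 ± 0.09 and Atf6 by -0.62 ± 0.10. Of 16 lineage regulators 9 were lower and 0 higher, among them Creb3l4 (-1.57 ± 0.17), Foxa1 (-0.81 ± 0.09) and Sox9 (-0.96 ± 0.13). Of 19 release genes 9 were lower and 1 higher, with Cftr at -2.31 ± 0.20, Slc12a2 at -2.17 ± 0.21 and the meprin Mep1b, of the protease family that frees mucus in the small intestine, at -1.23 ± 0.16. Of 4 other transmembrane mucins 3 were lower, Muc4 by -2.21 ± 0.35, and of 6 other secreted proteins 1 was lower. Among 9 signals 3 were lower, the IL-22 receptor chain Il22ra1 (-2.32 ± 0.23) among them, and 2 higher, with Il22 at 2.29 ± 0.54. The DSS saline libraries alone carry Il22 past the filter of 1 FPKM, so its difference is only a description. With thymopentin, where 16.5% of all tested genes were lower and 11% higher in DSS, the counts, lower against higher, were 11 and 1 for O-glycan enzymes, 8 and 1 for folding genes, 4 and 1 for lineage regulators, 5 and 0 for release genes, 1 and 0 for other transmembrane mucins, 1 and 0 for other secreted proteins and 3 and 0 for signals. Leaving out single libraries, the lower counts ranged from 11 to 12 for O-glycan enzymes, 6 to 8 for folding genes, 7 to 9 for lineage regulators and 8 to 10 for release genes with saline. With thymopentin they ranged from 10 to 12 for O-glycan enzymes, 4 to 9 for folding genes, 1 to 4 for lineage regulators and 3 to 7 for release genes, lowest without TNBS thymopentin 2, TNBS thymopentin 3, DSS thymopentin 2 or DSS thymopentin 3. The call of Muc3 with saline was lost without TNBS saline 1, TNBS saline 2 or DSS saline 1.

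Smooth muscle, immune and stem cell markers differed between the models with saline, where 46.6% of all tested genes were called. In DSS saline against TNBS saline 8 of 10 smooth muscle markers (5 without DSS saline 1) and 7 of 13 immune markers were higher and none lower (at a mean of at least 5 FPKM, 1 of the 4 immune markers left), and 7 of 8 stem and cycling markers were lower. Smooth muscle markers summed to 3491 to 4064 FPKM in DSS saline and 880 to 2701 FPKM in TNBS saline, with none at 0. Pan-epithelial markers summed to 6575 to 7944 FPKM in DSS saline and 6728 to 7239 FPKM in TNBS saline, with 2 of 12 higher and 5 lower, a share near that of all genes. With thymopentin limma called 0 of 10 smooth muscle markers (0 at an unadjusted p under 0.05), and 7 of 13 immune markers were higher, against 11% of all genes. Relative to pan-epithelial markers Muc2 remained lower in DSS in both comparisons, by log2 -1.71 with saline and -2.02 with thymopentin, where 32.1% and 29.2% of all genes were called. The part of the other markers was not tested, and model, batch of libraries and handling cannot be told apart, since no batch is given in the labels.

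How many genes of the whole table were higher or lower depended on the scaling. In DSS thymopentin against DSS saline 1753 genes were higher and 593 lower, but 797 and 1041 with median-ratio rescaling, which moved the median log2 change of all genes to -0.01 from 0.12. In DSS saline against TNBS saline 2090 were higher and 4341 lower, but 3130 and 2820 with that rescaling, at a median of 0.01 in place of -0.14. In DSS thymopentin against TNBS thymopentin 1524 were higher and 2275 lower, but 1922 and 1792. In TNBS thymopentin against TNBS saline 39 were higher and 53 lower, but 131 and 36 relative to pan-epithelial markers, and the difference of the responses had 376 higher and 334 lower, but 223 and 451 with median-ratio rescaling and 56 and 663 relative to pan-epithelial markers. Under median-ratio rescaling Atoh1 still rose with thymopentin in DSS (log2 0.68, adjusted p = 0.0264), and Muc2 was still lower in DSS than in TNBS with either agent.

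The genes whose log2(FPKM + 1) followed the mean of the 10 standardised genes most closely over the 12 libraries were Tc2n (r = 0.918), Sytl2 (0.911), Slc39a1 (0.907), Capn9 (0.896), Exoc2 (0.889) and Ffar4 (0.888); Sytl2 and Capn9 also stand in the list of release genes. For Muc2 alone they were Galnt12 (0.983), an O-glycan initiating enzyme, Pcsk5 (0.982), a proprotein convertase, and Dnajc10 (0.981), a disulfide reductase of the endoplasmic reticulum. Galnt12 averaged 19.5 FPKM in DSS thymopentin and 38.8 FPKM in TNBS thymopentin, and 20.3 FPKM in DSS saline and 50.5 FPKM in TNBS saline. For Retnlb they were Rap2b (0.925), Pdk4 (0.902) and Ncoa7 (0.875). These Pearson correlations describe 12 libraries that fall into 4 groups, and a difference between groups shared by a pair of genes is enough to raise them.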

How the data were processed

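RNA of 12 mouse colon samples in 4 groups of 3 was analysed from values that the authors deposited. The table of all genes holds FPKM, per the file headers, with gene symbols; tools in the submitters' processing notes are STAR 2.5, DESeq 1.22.1, Cuffnorm and FastQC, with mm9 as build and no role or order. Each colitis model also has a deposited table of selected genes with p-value, FDR and log2 fold change, per the file headers, and undescribed log2 columns per library. FPKM are not counts, so a count model was not the test. Raised from log2, low values of up to 30 reads in those tables were whole multiples of 1 step per library (7292 of 7292 within 0.01 reads), with size factors between 0.847 and 1.12; since only selected genes can be turned back into reads this way, no count test was run. For Retnlb that gave 327, 386 and 540 reads in DSS thymopentin and 1116, 1607 and 1938 in DSS saline, and 116, 175 and 2184 reads in TNBS thymopentin and 10318, 1499 and 20119 in TNBS saline. The sources used here do not give the total depth of a library.

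limma 3.58.1 in R 4.3.3 fitted 4 group means to log2(FPKM + 1) of the 13794 genes with a mean of at least 1 FPKM, with 8 residual degrees of freedom and an empirical Bayes trend, and was checked on simulated data. All p-values are two-sided, with Benjamini-Hochberg adjustment inside each of 5 comparisons. The adjustment covers all tested genes. With 3 libraries against 3 an exact permutation test cannot give a p below 0.1, so none was used.

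The 10 genes and the 17 gene lists (the 10 genes included) were chosen with earlier results of these data known, as were the tests; lists are described by counts and medians only. All 10 genes are named; from other lists up to 3 called genes per comparison by p were named, and Klf4, Il4, Il5, Il13, Il22, Hoxb13, Fabp2, Muc5ac, Tff1, Tff2, Lgr5 and Olfm4, and Il22ra1 in the DSS comparison, were picked once their values were known. Elf3 and Slc26a3 each stand in 2 lists. The genes most like the 10, Muc2 and Retnlb were the 6, 3 and 3 highest Pearson correlations. Of all tested genes 31.5% were lower and 15.2% higher in DSS than in TNBS with saline, and 16.5% and 11% with thymopentin. Of the lists not detailed between the models, absorptive markers were 6 lower and 1 higher of 14 in DSS saline than in TNBS saline, and 6 lower and 0 higher with thymopentin. For enteroendocrine markers the counts were 1 lower and 3 higher of 9 with saline and 3 lower and 0 higher with thymopentin, for Paneth markers 1 lower of 5 in each, and for colon segment markers 4 lower and 1 higher of 9 with saline and 2 lower and 2 higher with thymopentin. limma called 0 of 5 tuft markers in each (1 and 0 at an unadjusted p under 0.05). The genes called among the colon segment markers in DSS thymopentin against DSS saline are not reported here.

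Deviations from the group means correlated at 0.124, 0.268 and 0.476 between same-numbered TNBS libraries, all above 0.1, so the numbers were treated as pairs there, although TNBS thymopentin 1 correlated more with TNBS saline 2 (0.287) and the labels do not say what the numbers mean. In DSS the correlations were -0.136, 0.043 and -0.140, and the libraries share only a number. Alternatives were a pseudocount of 0.1, no filter, a mean of at least 5 FPKM, quantile normalization, median-ratio rescaling, values relative to the mean of 12 pan-epithelial markers, array weights, only the 2 groups compared, a replicate block and leaving out each library. A fit without TNBS saline 3 and TNBS thymopentin 3 together was added after seeing the data. Promoter windows came from RefSeq (GRCm38.p6), a later build than the files' mm9, and no coordinates were carried between builds. Tables were prepared in Python 3.11.15 (pandas 2.3.3, numpy 2.4.6) and plots in matplotlib 3.10.9.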

Additional observations from a re-analysis of the deposited data

How the results depend on the processing

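No value reversed a called direction. Muc2 stayed lower in DSS than in TNBS, with either agent, in every setting and without any single library, and so did Atoh1 with saline. The counts of called genes among the 10 moved as follows. For TNBS thymopentin against TNBS saline the count of 0 became 1 (Retnlb) with array weights, with the replicate block and without TNBS saline 3 and TNBS thymopentin 3, and ranged from 0 to 1 without single libraries. For DSS thymopentin against DSS saline the count of 1 became 0 relative to pan-epithelial markers, 4 with only the 2 groups and 3 without TNBS saline 3 and TNBS thymopentin 3, and ranged from 0 to 1 without single libraries. For DSS saline against TNBS saline the count of 2 became 5 with array weights, which added Agr2 (adjusted p = 0.0200), Retnlb (0.0060) and Spink4 (0.0232); it ranged from 2 to 3 without single libraries and was 3 without TNBS saline 3 and TNBS thymopentin 3, with Spink4 added (0.0110). For DSS thymopentin against TNBS thymopentin the count of 2 became 4 without TNBS saline 3 and TNBS thymopentin 3, adding Fcgbp (0.0190) and Spink4 (0.0282), and ranged from 1 to 3 without single libraries. Atoh1 was also called there at a mean of at least 5 FPKM (0.0467), with quantile normalization (0.0374), relative to pan-epithelial markers (0.0223) and with array weights (0.0279), and Spink4 with only the 2 groups (0.0403). The cause of these moves was not tested. TNBS saline 3 and TNBS thymopentin 3 were left out together because of their values in these genes, so calls added by that fit are only a description. The estimation of array weights did not reach its convergence tolerance.

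With the replicate block, an assumed pairing by number gave 1 call in TNBS (Retnlb, adjusted p = 0.0488), 2 in DSS (Atoh1 and Tff3, 0.0428), where the libraries share only a number, and 0 in the difference of the responses. The block changed no other call among the 10 genes. Over the single genes 981 of the values under alternatives kept their direction and side of the threshold, 27 passed it newly, 5 lost it and 57 uncalled values changed sign. Groups of 3 and unknown depth limit the precision, and Retnlb in TNBS rests on libraries that differ widely within groups.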
